A study of Mus musculus with 26 samples.

Results

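The pyruvate dehydrogenase kinases and phosphatases were followed in brown adipose tissue (BAT) of 26 male C57BL/6J mice. The group holds 7 genes chosen by symbol from the deposited table of 50686 genes, namely the kinases Pdk1, Pdk2, Pdk3 and Pdk4, the catalytic phosphatase subunits Pdp1 and Pdp2, and the phosphatase regulatory subunit Pdpr. All 7 were matched and all 7 were among the 17286 genes with enough counts to be tested. The mice were fat-specific Afadin knockouts, made with Adiponectin-Cre and floxed Mllt4 alleles, and littermate controls. Adiponectin-Cre is active in white and brown adipocytes alike, and not in the vessels, immune cells or muscle that a BAT sample can also hold. All mice were 12 to 16 weeks old and spent 2 weeks at thermoneutrality, which the sample labels give as 30 °C and the methods as 29 °C. The groups were 7 control mice kept at thermoneutrality (WT30), 7 knockout-labelled mice kept at thermoneutrality (KO30), 5 control mice moved to 5 °C for 6 h (WT5) and 7 knockout-labelled mice moved to 5 °C for 6 h (KO5). The tissue was the supraclavicular depot, and RNA was depleted of ribosomal RNA and sequenced with strand information.

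The pyruvate dehydrogenase complex sits in the mitochondrial matrix and turns pyruvate from glycolysis into acetyl-CoA. It is switched off when a kinase (PDK) phosphorylates its E1 alpha subunit and switched on again when a phosphatase (PDP) removes the phosphate. In BAT this step sets how much glucose carbon becomes acetyl-CoA in the mitochondria, beside that from fatty acids, the main fuel of heat production. The mRNA levels described here are not enzyme activities.

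The stretches around the transcription starts of the 4 genes whose levels changed with cold are shown first, each from 250 bases before to 50 bases after the RefSeq start (GRCm38.p6, the assembly called mm10). They are shown because the members that moved with cold went in opposite directions. Each stretch was searched on both strands, and capitals mark the matches. The nuclear receptor half-site was searched as AGGTCA, the glucocorticoid receptor half-site as TGTTCT and the core of forkhead sites as TGTTTA. The half-site of the cAMP response element was searched as TGACG. The core of the hypoxia response element was searched only in the form ACGTG, so that its form GCGTG was not covered. Of the core promoter motifs, TATAAA stood for the Goldberg-Hogness box, and CCAAT for the box of that name. The hypoxia and cAMP motifs can overlap each other, and the hypoxia motif can overlap its own reverse complement.
Pdk4 (chr6:5496229-5496528, minus strand): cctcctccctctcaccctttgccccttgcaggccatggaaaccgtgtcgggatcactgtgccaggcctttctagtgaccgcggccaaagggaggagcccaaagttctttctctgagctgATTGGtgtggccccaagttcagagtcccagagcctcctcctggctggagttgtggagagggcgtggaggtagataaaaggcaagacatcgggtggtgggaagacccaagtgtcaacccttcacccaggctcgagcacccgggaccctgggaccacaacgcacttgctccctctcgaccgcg
Pdp2 (chr8:104591222-104591521, plus strand): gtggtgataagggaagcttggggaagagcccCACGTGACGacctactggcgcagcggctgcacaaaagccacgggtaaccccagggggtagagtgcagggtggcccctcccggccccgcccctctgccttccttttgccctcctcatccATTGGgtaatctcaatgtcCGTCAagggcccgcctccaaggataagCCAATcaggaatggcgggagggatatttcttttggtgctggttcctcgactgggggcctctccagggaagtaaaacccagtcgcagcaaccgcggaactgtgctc
Pdk1 (chr2:71872974-71873273, plus strand): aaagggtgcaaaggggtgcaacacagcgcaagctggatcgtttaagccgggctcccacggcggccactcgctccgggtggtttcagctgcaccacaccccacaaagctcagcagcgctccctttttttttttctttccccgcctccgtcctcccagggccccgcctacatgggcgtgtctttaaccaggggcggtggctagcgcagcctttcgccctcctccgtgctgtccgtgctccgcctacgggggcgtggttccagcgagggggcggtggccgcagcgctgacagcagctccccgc
Pdk2 (chr11:95041322-95041621, minus strand): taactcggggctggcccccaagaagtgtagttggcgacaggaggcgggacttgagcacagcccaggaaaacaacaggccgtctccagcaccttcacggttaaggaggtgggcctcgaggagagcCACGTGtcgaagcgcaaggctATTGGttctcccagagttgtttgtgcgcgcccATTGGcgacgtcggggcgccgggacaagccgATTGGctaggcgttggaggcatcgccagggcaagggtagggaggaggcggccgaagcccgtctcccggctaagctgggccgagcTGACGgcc
The Pdk4 stretch held 1 CCAAT match and none of the other 6 motifs in the forms searched. The Pdp2 stretch held TGACG 2 times, ACGTG 2 times and CCAAT 2 times. Its ACGTG matches were a single CACGTG, read on both strands. The Pdk2 stretch held TGACG 1 time, ACGTG 2 times and CCAAT 3 times, where the ACGTG matches were again a single CACGTG. The Pdk1 stretch held no match to the forms searched. Among the 32851 RefSeq promoter stretches of the same length, 37.4% held CCAAT, 20.8% TGACG, 19.6% ACGTG, 19.0% TGTTCT, 16.3% AGGTCA, 13.6% TATAAA and 13.4% TGTTTA. A match is a description of the letters and no evidence of binding.

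The libraries held 12705969 to 25732258 counts each. Each of the 73 within-group pairs of libraries showed more than sampling noise between its mice. Afdn (Mllt4), the targeted gene, had 196 ± 21.0 CPM (normalized counts, scaled by library size and TMM factor) in WT30 and 195 ± 27.4 in KO30 (SD, n = 7 each), with a log2 difference of -0.01 (edgeR's quasi-likelihood test, Benjamini-Hochberg adjusted p = 0.992). After cold it had 73.5 ± 4.27 in WT5 (n = 5) and 58.5 ± 4.15 in KO5 (n = 7), a log2 difference of -0.33 (adjusted p = 0.116, edgeR's quasi-likelihood test), which DESeq2's Wald test called (-0.32, adjusted p = 0.0465). The first difference changed sign with library size alone (0.15). Afdn was thus not lower in the libraries labelled KO at thermoneutrality, so that the groups are named by their labels. Brown adipocyte markers summed to 7032 to 9032 CPM at thermoneutrality and to 28543 to 36605 CPM after cold, with all 10 markers detected, although Elovl3 was below 1 CPM in WT30. Ucp1, which is among them, had means of 985 CPM in WT30, 811 in KO30, 16005 in WT5 and 16429 in KO5. The higher sum after cold can thus not be read as a higher content of brown adipocytes. Skeletal muscle markers varied widely within every group, from 23.7 to 14078 CPM in WT30, 18.0 to 3934 in KO30, 10.3 to 14394 in WT5 and 11.7 to 18281 in KO5. White adipocyte markers, of which 4 of 6 were tested, summed to 288 to 511 CPM at thermoneutrality and to 67.0 to 126 CPM after cold, with Tcf21 at 0 in every WT30, KO30 and KO5 mouse and Hoxc9 at 0 in every KO5 mouse. The lower sum after cold is likewise not read as a lower content of white adipocytes. Endothelial markers summed to 421 to 528 CPM in WT30, 466 to 595 in KO30, 690 to 788 in WT5 and 594 to 801 in KO5. Red blood cell markers ran from 233 to 1120.0 CPM in WT30, 289 to 609 in KO30, 417 to 684 in WT5 and 517 to 1497 in KO5. The part of these markers in the results was not tested. WT30 replicate 7 stood apart, with a TMM factor of 1.29 against 0.93 to 1.02 in the other WT30 mice, 14.3% of counts from mitochondrial genes and the highest muscle signal of its group. TMM factors ran from 0.995 to 1.24 in KO30 and from 0.76 to 1.01 in KO5.

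Cold changed 4 of the 7 genes in control mice and the same 4 in knockout-labelled mice. Pdk4 and Pdp2 rose, Pdk1 and Pdk2 fell, and Pdk3, Pdp1 and Pdpr passed the threshold in neither genotype. Across all genes tested, 65.0% were called in control mice and 68.6% in knockout-labelled mice, so that 4 of 7 is close to the background. The groups before and after cold did not overlap for 4 members in control mice, against 46.4% of all genes, and for 2 members, Pdk4 and Pdp2, in knockout-labelled mice, against 40.4%. The median log2 fold change of the 7 genes was -0.16 in control mice and 0.08 in knockout-labelled mice, against -0.01 and -0.03 over all genes tested. In bulk tissue, fewer cells of a type and less RNA per cell cannot be told apart. The plot of levels by mouse shows all 7 genes.

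**Figure D1:**
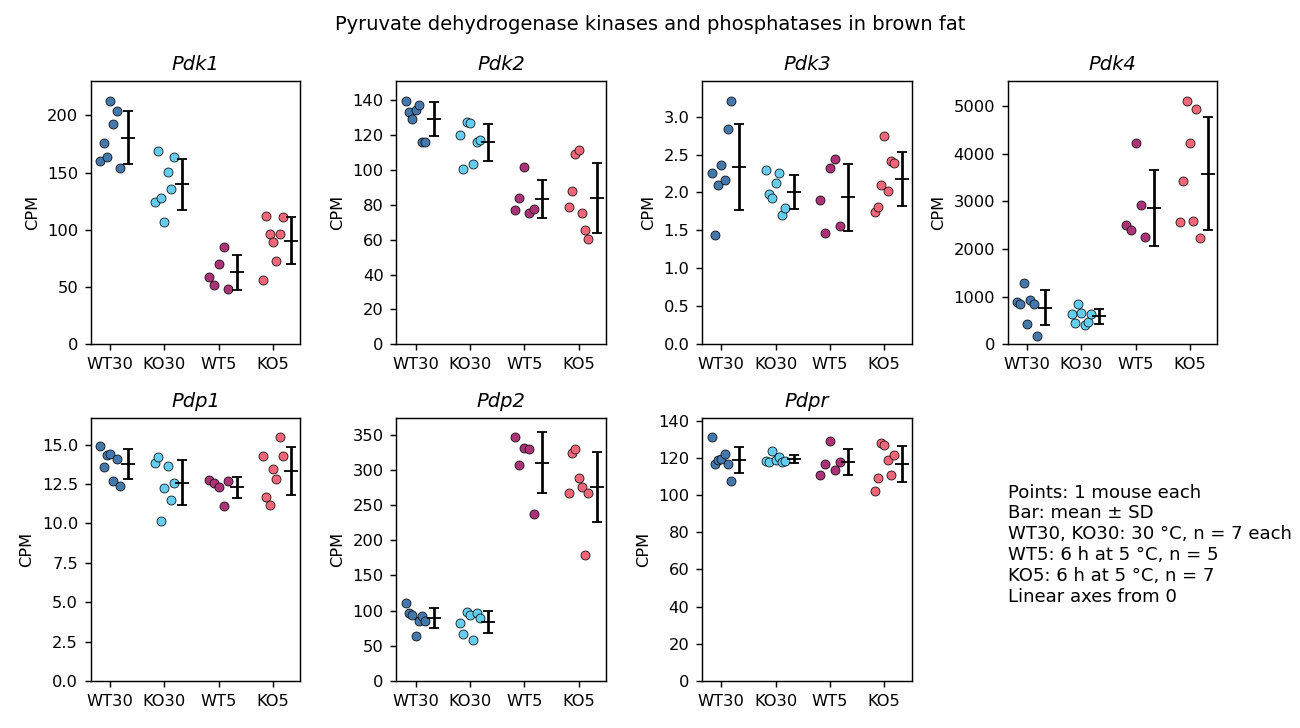
Level of each gene in CPM (vertical axes, linear, from 0) in the 4 groups WT30, KO30, WT5 and KO5, with 1 point per mouse and a bar with whiskers for the mean ± SD. Pdk4 and Pdp2 sit higher at 5 °C in both genotypes without overlap, Pdk1 and Pdk2 sit lower, and Pdpr stays between 102 and 131 CPM in all 26 mice.

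Pdk4 (ENSMUSG00000019577.6, mm10 chromosome 6 from 5483351 to 5496309, minus strand) encodes the kinase that fasting and glucocorticoids induce in many tissues. In WT30 it ran from 176 to 1292 CPM with a median of 849, and in KO30 from 396 to 850.5 with a median of 641. In WT5 the 5 mice had 2502, 2399, 4219.8, 2920.3 and 2242 CPM. In KO5 the level ran from 2238 to 5120.2 with a median of 3423. Every cold-exposed mouse thus exceeded every mouse at thermoneutrality. The log2 fold change was 1.89 (SE 0.31) in control mice, or 3.71-fold (edgeR's quasi-likelihood test, Benjamini-Hochberg adjusted p = 6.46e-06). In knockout-labelled mice it was 2.62 (SE 0.30), or 6.13-fold (edgeR's quasi-likelihood test, Benjamini-Hochberg adjusted p = 1.85e-08). The lowest value, 176 CPM, was that of WT30 replicate 7, and without this mouse the change in control mice was 1.70 (SE 0.25). Within groups, the deviations of Pdk4 went with those of the TMM factor (Pearson r = -0.67 over 26 mice), with the mitochondrial share of counts (0.71) and with the muscle score (-0.49), all taken from the same libraries. The part of these measures in the Pdk4 values was not tested, and with the muscle score as a covariate the change in control mice was 1.98.

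Pdk1 (ENSMUSG00000006494.11, mm10 chromosome 2 from 71873224 to 71903858, plus strand) encodes a kinase known as a target of hypoxia-inducible factor. Its level ran from 154 to 213 CPM with a median of 176 in WT30, and from 107 to 169 with a median of 135 in KO30. The 5 WT5 mice had 58.4, 51.8, 69.9, 85.2 and 48.6 CPM. The 7 KO5 mice ran from 56.0 to 112 with a median of 96.0. In control mice the groups were well apart, whereas in knockout-labelled mice 2 of the 7 cold-exposed mice reached into the range of KO30. Pdk1 fell by 1.52 (log2) in control mice, a 2.87-fold decrease (SE 0.16, edgeR's quasi-likelihood test, Benjamini-Hochberg adjusted p = 4.07e-09). It fell by 0.62 in knockout-labelled mice, a 1.54-fold decrease (SE 0.14, edgeR's quasi-likelihood test, Benjamini-Hochberg adjusted p = 0.000291).

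Pdk2 (ENSMUSG00000038967.13, mm10 chromosome 11 from 95026258 to 95041354, minus strand) encodes the most widely expressed of the kinases. It ran from 116 to 139.9 CPM with a median of 133 in WT30 and from 100.3 to 128 with a median of 117 in KO30. The WT5 mice had 77.0, 83.7, 102, 75.2 and 77.7 CPM, all below WT30. In KO5 it ran from 60.4 to 111 with a median of 79.0, and 2 of the 7 mice overlapped KO30. It fell by 0.64 (log2) in control mice (SE 0.12, edgeR's quasi-likelihood test, Benjamini-Hochberg adjusted p = 4.51e-05) and by 0.46 in knockout-labelled mice (SE 0.11, adjusted p = 0.000495 in the same test). Its deviations within groups went with the TMM factor (Pearson r = -0.73 over 26 mice) and with a score of nuclear-retained RNAs such as Malat1 and Neat1 (0.58). With that score as a covariate, the fall in knockout-labelled mice was no longer called (-0.19, adjusted p = 0.186 in edgeR's quasi-likelihood test). An antisense gene, Gm11513, lies over Pdk2 without sharing exons.

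Pdk3 (ENSMUSG00000035232.8, mm10 chromosome X from 93764607 to 93832201, minus strand) was the least abundant kinase, with 21 to 70 counts per library. It had 2.34 ± 0.57 CPM in WT30 and 2.01 ± 0.22 in KO30 (SD, n = 7 each), 1.94 ± 0.44 in WT5 (n = 5) and 2.17 ± 0.36 in KO5 (n = 7). The groups overlapped throughout. The log2 difference with cold was -0.27 (SE 0.17) in control mice and 0.12 (SE 0.16) in knockout-labelled mice, neither called.

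Pdp2 (ENSMUSG00000048371.8, mm10 chromosome 8 from 104591451 to 104599026, plus strand) encodes a catalytic phosphatase subunit known to respond to insulin. It ran from 64.2 to 111 CPM with a median of 92.7 in WT30 and from 58.6 to 97.5 with a median of 89.8 in KO30. The WT5 mice had 346, 307, 331, 329 and 237 CPM. The KO5 mice ran from 179 to 329 with a median of 276. All cold-exposed mice were above all mice at thermoneutrality. Pdp2 rose by 1.79 (log2) in control mice, 3.46-fold (SE 0.14, edgeR's quasi-likelihood test, Benjamini-Hochberg adjusted p = 1.97e-11), and by 1.72 in knockout-labelled mice, 3.30-fold (SE 0.13, adjusted p = 1.02e-11 in the same test). The kinase Pdk4 and the phosphatase Pdp2, which act against each other on the complex, were the members called higher in both genotypes.

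Pdp1 (ENSMUSG00000049225.14, mm10 chromosome 4 from 11958184 to 11966452, minus strand) encodes the calcium-stimulated catalytic subunit. It had 13.8 ± 0.94 CPM in WT30, 12.6 ± 1.45 in KO30 (SD, n = 7 each), 12.3 ± 0.67 in WT5 (n = 5) and 13.3 ± 1.53 in KO5 (n = 7). The log2 difference with cold was -0.16 (SE 0.09, edgeR's quasi-likelihood test, Benjamini-Hochberg adjusted p = 0.0957) in control mice and 0.08 (SE 0.08) in knockout-labelled mice. Without WT30 replicate 7, the difference in control mice was -0.21 and was called (adjusted p = 0.0363, edgeR's quasi-likelihood test).

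Pdpr (ENSMUSG00000033624.10, mm10 chromosome 8 from 111094630 to 111137074, plus strand) encodes the regulatory subunit that binds the catalytic phosphatase subunit. It was the steadiest member, with 119 ± 7.02 CPM in WT30, 119 ± 2.14 in KO30 (SD, n = 7 each), 118 ± 7.05 in WT5 (n = 5) and 117 ± 9.71 in KO5 (n = 7). Its log2 difference with cold was -0.02 (SE 0.06) in control mice and -0.03 (SE 0.05) in knockout-labelled mice. It overlaps exons of 9430091E24Rik on the opposite strand, and the strand setting of the counting is not given in the sources used here. In knockout-labelled mice the call of Pdpr depended on the scaling. With library size alone, the median over all genes moved from -0.03 to -0.34 in knockout-labelled mice and Pdpr stood at -0.36 with the call, and with upper-quartile factors the median moved to -0.18 and Pdpr to -0.19 with the call. In control mice those medians were -0.14 and -0.12, and Pdpr was not called with either scaling. The called directions of Pdk1, Pdk2, Pdk4 and Pdp2 kept their sign and their call under every scaling tried.

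**Figure D2:**
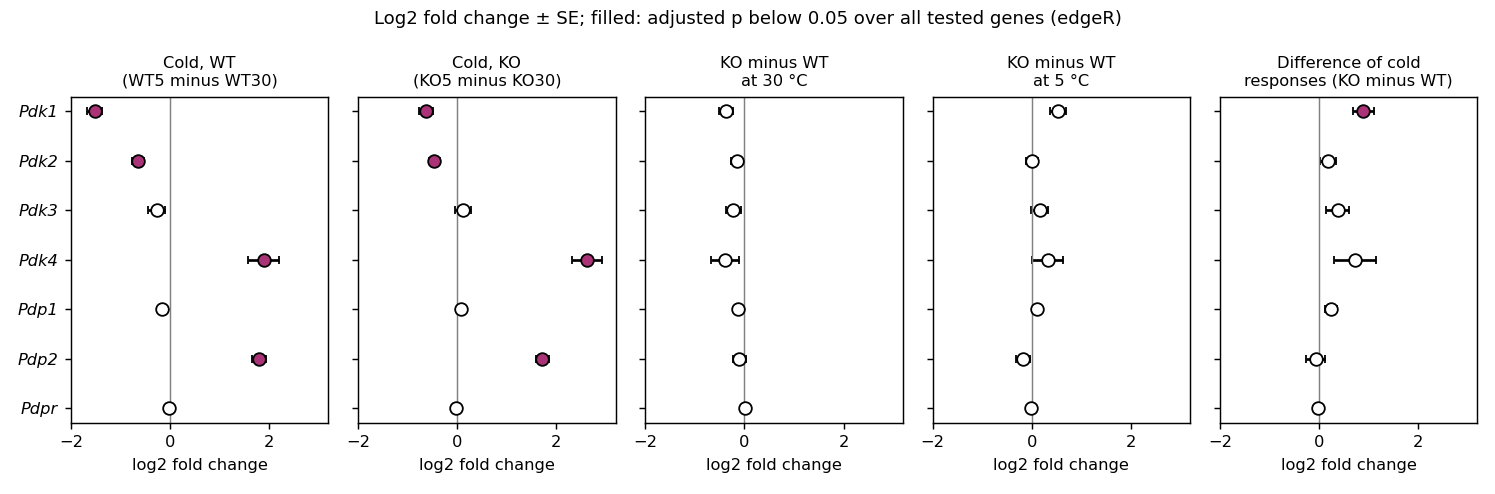
Log2 fold change ± SE of the 7 genes (horizontal axes) for cold in control mice, cold in knockout-labelled mice, knockout-labelled against control mice at 30 °C and at 5 °C, and the genotype difference in the cold response. Filled points passed an adjusted p of 0.05 over all 17286 genes by edgeR's quasi-likelihood test. They are Pdk1, Pdk2, Pdk4 and Pdp2 in both cold panels and Pdk1 in the last.

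To compare levels between genes, CPM were divided by exon length (RPKM, the CPM per kilobase of exon). At thermoneutrality the mean order was Pdk4, Pdk2, Pdpr, Pdk1, Pdp2, Pdp1 and Pdk3 in both genotypes, with 219 ± 103 RPKM for Pdk4, 40.9 ± 3.05 for Pdk2, 23.7 ± 1.40 for Pdpr, 23.2 ± 2.96 for Pdk1, 15.8 ± 2.49 for Pdp2, 3.05 ± 0.21 for Pdp1 and 0.91 ± 0.22 for Pdk3 in WT30 (SD, n = 7). Pdpr and Pdk1 overlapped in WT30, and Pdk1 and Pdp2 in KO30. After cold Pdp2 moved to the second place in both genotypes, with 54.5 ± 7.56 RPKM in WT5 (n = 5) and 48.5 ± 8.75 in KO5 (n = 7), and Pdk1 stood at 8.07 ± 1.93 and 11.6 ± 2.59 RPKM, below Pdpr without overlap. Pdk2 and Pdpr overlapped in both cold groups, as did Pdp2 and Pdk2 in KO5. Some of these places depended on the length used. With the longest annotated transcript as length, the mean of Pdk1 was above that of Pdpr at thermoneutrality in both genotypes (with overlap in KO30). Pdk2 and Pdpr then no longer overlapped in the cold groups, and Pdk1 and Pdpr overlapped in KO5. Pdp2 and Pdk2 then overlapped in WT5 too, where the lowest Pdp2 was 41.7 RPKM and the highest Pdk2 45.3.

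The kinase messages became almost entirely Pdk4 after cold. Its share of the summed kinase RPKM was 73.0% ± 13.6 in WT30 and 74.2% ± 4.66 in KO30 (SD, n = 7 each), and 95.7% ± 0.54 in WT5 (n = 5) and 96.1% ± 0.90 in KO5 (n = 7). The lowest share in WT30, 46.5%, was that of replicate 7. Pdk1 contributed 9.64% in WT30 and 0.970% in WT5, 8.53% in KO30 and 1.19% in KO5. Among the catalytic phosphatase subunits, Pdp2 made up 83.5% in WT30 and KO30, 95.2% in WT5 and 94.0% in KO5. These shares are descriptions with no test.

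The summed kinase and summed phosphatase levels both stood higher after cold, and their ratio stayed within the spread between mice in control animals. The kinase sum was 284 ± 104 RPKM in WT30 (SD, n = 7) and 849 ± 233 in WT5 (n = 5), and the phosphatase sum was 18.8 ± 2.55 and 57.2 ± 7.52. In knockout-labelled mice the kinase sum was 222 ± 46.8 RPKM in KO30 and 1059.9 ± 343 in KO5 (SD, n = 7 each). The phosphatase sum there was 17.5 ± 2.47 and 51.4 ± 8.44. The ratio of kinase to phosphatase was 15.0 ± 4.93 in WT30, 14.8 ± 3.39 in WT5, 12.7 ± 1.76 in KO30 and 21.5 ± 9.78 in KO5. The KO30 ratios ran from 9.63 to 15.5. The KO5 ratios ran from 13.4 to 41.3 with a median of 17.1, which is above every KO30 ratio. The highest KO5 ratio was that of replicate 27, which combined the lowest Pdp2 of its group with a Pdk4 level of 4941 CPM.

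**Figure D3:**
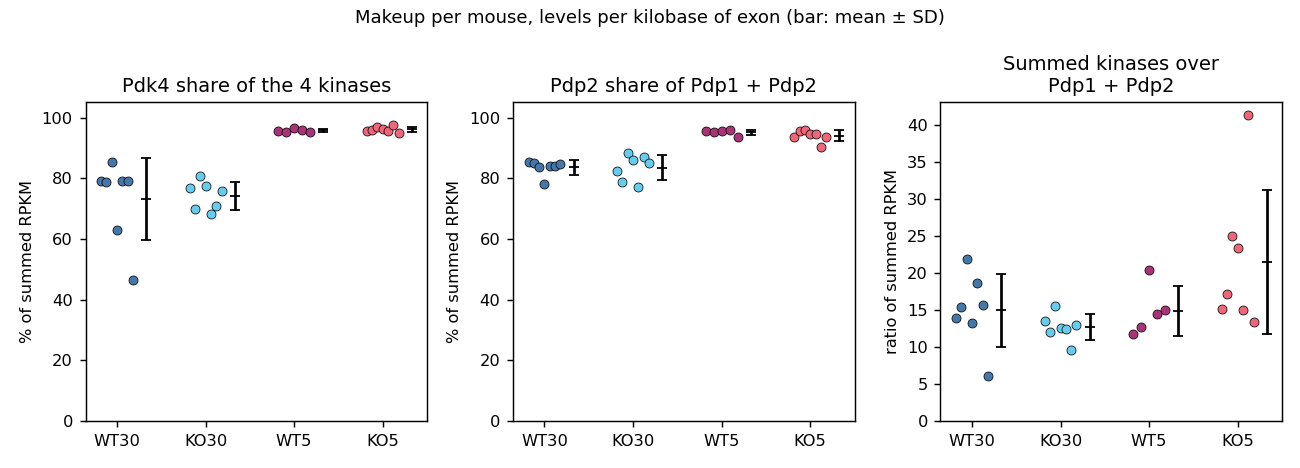
Share of Pdk4 in the summed kinase level, share of Pdp2 in the summed catalytic phosphatase level, and ratio of the kinase sum to the phosphatase sum, all from levels per kilobase of exon, with 1 point per mouse and bars for mean ± SD. The Pdk4 share lies between 94.9% and 97.6% in all cold-exposed mice, and the ratio spreads most in KO5, from 13.4 to 41.3.

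The groups of the 2 genotypes overlapped for all 7 genes at both temperatures, while 0.249% of all genes had groups that did not overlap at thermoneutrality and 1.11% after cold. None of the 7 genes differed between knockout-labelled and control mice at an adjusted p of 0.05 at either temperature. Over all genes, 0.0810% were called at thermoneutrality and 0.139% after cold. The median log2 difference of the 7 genes was -0.16 at thermoneutrality and 0.12 after cold, against -0.02 and 0.02 over all genes. Only Pdk1 had an unadjusted p below 0.05 in edgeR's quasi-likelihood test, at both temperatures, as had 7.65% and 13.4% of all genes. Its log2 difference was -0.37 at thermoneutrality (SE 0.14, edgeR's quasi-likelihood test, Benjamini-Hochberg adjusted p = 0.489), where 5 of 7 KO30 mice were below all WT30 mice. After cold it was 0.53 (SE 0.15, adjusted p = 0.139 in the same test), where 5 of 7 KO5 mice were above all WT5 mice. Tested alone, without adjustment over genes, Pdk1 had exact two-sided permutation p-values of 0.00874 and 0.0328, and Pdk2 had one of 0.0291 at thermoneutrality. After cold, DESeq2's Wald test called Pdk1 (adjusted p = 0.0409), and so did edgeR's quasi-likelihood test without KO5 replicate 22 (log2 difference 0.62, adjusted p = 0.0428). Pdk4 differed by -0.40 (SE 0.28) at thermoneutrality and 0.33 (SE 0.31) after cold, Pdk2 by -0.16 and 0.01, Pdk3 by -0.22 and 0.16, Pdp1 by -0.13 and 0.12, and Pdp2 by -0.10 and -0.17. Pdpr differed by less than 0.02 at both temperatures.

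The cold response itself differed between the genotypes for Pdk1. The difference of the log2 fold changes, knockout-labelled minus control, was 0.90 (SE 0.21, edgeR's quasi-likelihood test for the interaction, Benjamini-Hochberg adjusted p = 0.0330), so that the fall was smaller in knockout-labelled mice. Pdk1 was the 1 member of 7 called, while 1.16% of all genes were called for this difference and 0.289% of all genes in the same, positive direction. An exact two-sided permutation test of Pdk1 alone, with genotype labels shuffled within each temperature, gave p = 0.000965 without adjustment over genes. This shuffling takes the genotypes as alike at both temperatures, so it does not test the difference of the cold responses alone. The call was close to the threshold. Leaving out each mouse in turn kept the difference between 0.82 and 1.03, while the adjusted p ran from 0.0120 to 0.0808 and stayed below 0.05 in 16 of 26 fits. It was lost without WT30 replicates 2, 4 or 6 (adjusted p = 0.0501, 0.0533 and 0.0542 in edgeR's quasi-likelihood test), KO30 replicates 8, 10 or 11 (0.0612, 0.0595 and 0.0545), WT5 replicates 16, 17 or 21 (0.0608, 0.0808 and 0.0686) or KO5 replicate 24 (0.0501). It was also lost with library size alone (adjusted p = 0.129, edgeR's quasi-likelihood test) and without the filter on low counts (0.0730). Without the 4 mice with the most extreme TMM factors (WT30 replicate 7, KO30 replicate 12 and KO5 replicates 24 and 25), a choice made after seeing the data, the difference was 0.93 (adjusted p = 0.0434, edgeR's quasi-likelihood test). The nuclear-retained RNA score, a mean of 6 log2 CPM values, ran from 6.75 to 6.96 in WT30 and 6.97 to 7.16 in KO30, and from 6.97 to 7.12 in WT5 and 6.71 to 7.00 in KO5. It thus moved with the same 4 groups, and with it as a covariate the Pdk1 difference was 1.12 (adjusted p = 0.143, edgeR's quasi-likelihood test). Its part in the result was not tested beyond this fit.

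**Figure D4:**
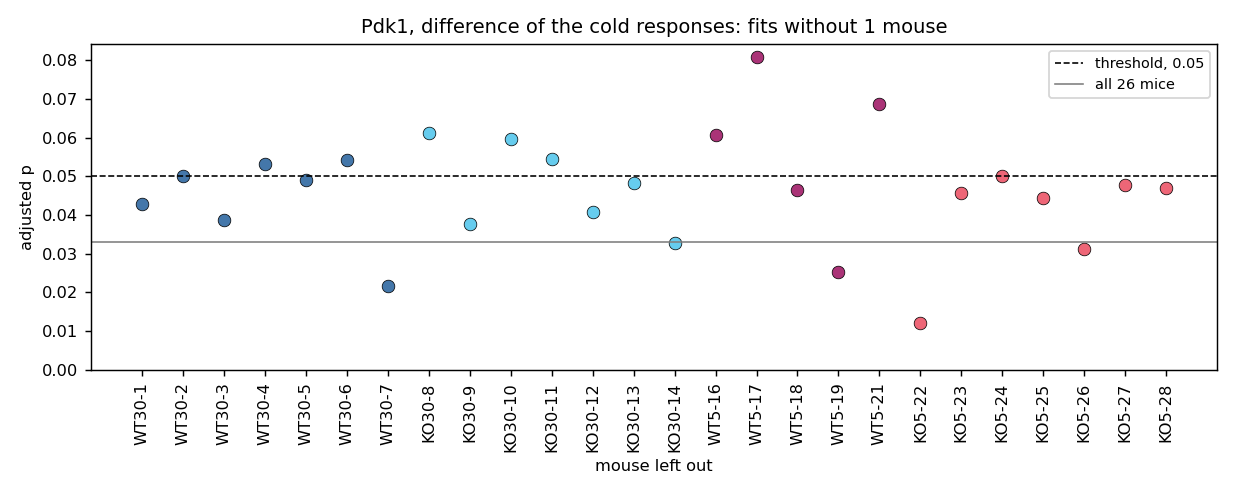
Adjusted p of the Pdk1 difference of the cold responses (vertical axis, linear, edgeR's quasi-likelihood test) in 26 fits that each left out 1 mouse (horizontal axis). The dashed line is the threshold of 0.05, which 16 fits stayed below and 10 exceeded.

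Pdp1 had a difference of the cold responses of 0.24 (SE 0.12) with an unadjusted p of 0.0458 and a Benjamini-Hochberg adjusted p of 0.299 by edgeR's quasi-likelihood test. The share of all genes with an unadjusted p below 0.05 was 16.2%. For Pdk4 the difference was 0.72 (SE 0.42, edgeR's quasi-likelihood test, Benjamini-Hochberg adjusted p = 0.407). For Pdk3 it was 0.38 (SE 0.23), for Pdk2 0.17 (SE 0.16), for Pdp2 -0.07 (SE 0.19) and for Pdpr -0.01 (SE 0.08), none of them called.

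The complex that these enzymes act on changed unevenly with cold. Of its 5 subunit genes, 2 rose and 1 fell in control mice, and 4 rose in knockout-labelled mice, against 31.6% of all genes called higher and 33.4% called lower in control mice and 33.7% and 34.9% in knockout-labelled mice. Pdhx, the E3-binding protein, rose from 95.8 ± 10.5 to 189 ± 14.8 CPM in control mice and from 90.9 ± 8.20 to 194 ± 25.7 in knockout-labelled mice (SD, n = 7, 5, 7 and 7). Dld, the E3 dihydrolipoamide dehydrogenase, rose from 554 to 851 and from 511 to 852 CPM. Pdha1, the E1 alpha subunit that the kinases phosphorylate, fell from 1394 ± 160 to 1087 ± 76.9 CPM in control mice, a log2 change of -0.36 (SE 0.09, edgeR's quasi-likelihood test, Benjamini-Hochberg adjusted p = 0.00108). In knockout-labelled mice it had 1240.0 ± 100.2 and 1303 ± 171 CPM, a log2 difference of 0.07 that was not called. Pdhb, the E1 beta subunit, and Dlat, the E2 acetyltransferase, rose by 0.46 each on the log2 scale in knockout-labelled mice and had -0.12 and 0.18 in control mice, not called. None of the 5 was called for the difference of the cold responses. Pdha1 (0.43, adjusted p = 0.0743) and Pdhb (0.58, adjusted p = 0.0575 in edgeR's quasi-likelihood test) were nearest, and DESeq2 called both.

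Of the mitochondrial pyruvate carrier, Mpc2 rose from 167 ± 20.9 to 292 ± 8.85 CPM in control mice and from 145 ± 21.2 to 307 ± 45.6 in knockout-labelled mice. Mpc1 rose by 0.57 in knockout-labelled mice and had 0.09 in control mice, not called. With library size alone as the scaling, the calls of Pdhb, Dlat and Mpc1 in knockout-labelled mice were lost (adjusted p = 0.330, 0.227 and 0.159, edgeR's quasi-likelihood test). The sign of Pdha1 in knockout-labelled mice and of Mpc1 in control mice turned with library size alone and with upper-quartile factors.

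**Figure D5:**
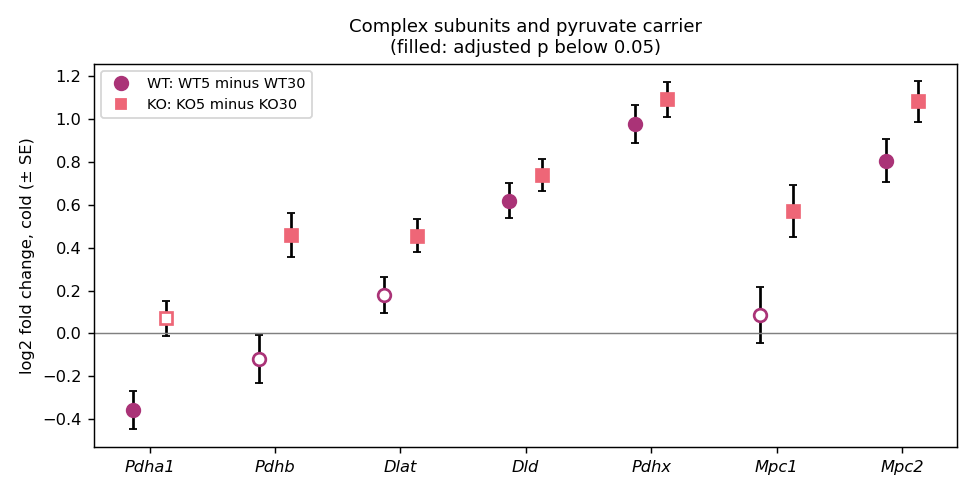
Log2 fold change with cold ± SE (vertical axis) of the 5 complex subunits and the 2 carrier genes in control and knockout-labelled mice. Filled points passed an adjusted p of 0.05 over all genes tested. Dld, Pdhx and Mpc2 are higher in both genotypes, and Pdha1 is filled in control mice at -0.36.

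Of 6 tested genes for lipoate and thiamine supply (Slc19a3 was not tested), 1 rose and 4 fell in control mice and 1 rose and 3 fell in knockout-labelled mice. Among all genes tested, 31.6% were higher and 33.4% lower in control mice, and 33.7% and 34.9% in knockout-labelled mice, which is also the background of the next counts. The median log2 fold change of the cofactor genes was -0.78 in control and -0.32 in knockout-labelled mice. Lipt2, which transfers the octanoyl precursor of lipoate, fell from 3.35 to 1.65 CPM in control mice, while the thiamine carrier Slc19a2 rose from 10.9 to 17.0. The related branched-chain and oxoglutarate dehydrogenases with their own kinase and phosphatase split 3 higher and 3 lower of 7 in control mice and 4 and 1 in knockout-labelled mice. The latter count turned to 2 and 3 with library size alone. Bckdk, the kinase of the branched-chain complex, fell from 106 ± 8.47 to 67.9 ± 2.10 CPM in control mice, while the complex subunits Dbt and Bckdhb rose by 1.11 and 0.78 (log2). Among 9 genes for other fates of pyruvate, 1 rose and 3 fell in control mice and 4 rose and 1 fell in knockout-labelled mice, a split that became 1 and 3 with library size alone. The medians were 0.029 and 0.18 for the related dehydrogenases and -0.16 and 0.37 for the other fates, in control and knockout-labelled mice. Ldhb, a lactate dehydrogenase subunit, rose from 298 to 420.1 CPM in control mice, and Gpt, alanine aminotransferase, fell from 81.0 to 36.0.

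Regulators reported upstream of the kinases moved in both directions. Of 14 transcription factors and coactivators, 7 rose and 3 fell with cold in each genotype, although these were not all the same genes. With library size alone these counts were 5 and 7 in knockout-labelled mice. Called higher were 31.6% of all genes in control mice and 33.7% in knockout-labelled mice, and called lower were 33.4% and 34.9%. The medians of the 14 genes were 0.49 and 0.33 (log2). Ppargc1a, the coactivator of mitochondrial biogenesis, rose from 33.2 ± 6.49 to 559 ± 152 CPM in control mice, and Foxo1, a forkhead factor restrained by insulin, rose from 32.6 ± 4.96 to 113 ± 15.9. Ppara, the fatty acid receptor, fell from 377 to 168 CPM, and the lipogenic factor Srebf1 fell from 431 ± 238 to 41.3 ± 7.53 CPM in control mice. Among 15 PPAR target genes, 8 rose and 1 fell in control mice and 10 rose and 0 fell in knockout-labelled mice, with medians of 0.38 and 0.64 against -0.01 and -0.03 over all genes. Plin2, which coats lipid droplets, rose from 367 to 2699 CPM and the mitochondrial acyl-CoA thioesterase Acot2 from 23.2 to 170.4 CPM in control mice.

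Of 10 glucocorticoid-induced genes, 9 rose in control mice and 10 in knockout-labelled mice. These counts were the same in every other setting tried, the fits that left out single mice not counted here. This list and the others were chosen with earlier results of these data known, so the counts are descriptions and no independent result. The background was 31.6% of all genes higher in control mice and 33.7% in knockout-labelled mice, and for the lower genes of the next lists 33.4% and 34.9%. The medians of the glucocorticoid-induced genes were 1.89 and 1.90 (log2). Fkbp5, a chaperone of the glucocorticoid receptor, rose from 18.7 ± 6.39 to 103 ± 11.4 CPM and the metallothionein Mt2 from 5.18 ± 1.29 to 102 ± 32.9 CPM in control mice. The receptor gene Nr3c1 itself had 176 ± 9.65 CPM in WT30 and 186 ± 18.7 in WT5 and was not called, and it is named although it is outside the naming rule because it is the receptor of this list. Of 10 FoxO target genes, 4 rose and 5 fell in control mice and 4 rose and 3 fell in knockout-labelled mice, with medians of -0.25 and 0.25. Irs2 and Trib1 rose by 1.66 and 2.29 (log2) in control mice, the sestrin Sesn1 fell by 1.00 and the sestrin Sesn3 fell by 1.55. Of 9 tested HIF target genes (Car9 was not tested), 4 rose and 2 fell in control mice and 4 rose and 1 fell in knockout-labelled mice, with medians of 0.44 and 0.30. The glucose carrier Slc2a1 rose from 6.06 to 15.2 CPM and the peptide hormone gene Adm from 3.34 to 9.70 CPM in control mice. Bnip3, which is in the FoxO and the HIF lists, fell from 132 to 106 CPM in control mice, a call (adjusted p = 0.0423 in edgeR's quasi-likelihood test) that was lost in 7 of the 12 fits that left out 1 of these mice, with adjusted p from 0.0558 to 0.0943. Of 7 genes for mitochondrial calcium uptake, 3 rose and 3 fell in control mice and 2 rose and 2 fell in knockout-labelled mice. With library size alone these counts were 1 and 3 in control mice and 0 and 4 in knockout-labelled mice. Micu2, a gatekeeper of the uniporter, fell from 27.1 to 17.3 CPM in control mice, and the uniporter subunit Smdt1 rose by 0.30 (log2) there, a call that was lost with library size alone (adjusted p = 0.212, edgeR's quasi-likelihood test). No gene of these lists was called between knockout-labelled and control mice at either temperature. For the difference of the cold responses, Pkm, muscle pyruvate kinase, was the gene of these lists called, at 0.51 (SE 0.12, adjusted p = 0.0408 in edgeR's quasi-likelihood test), and it is named for that call, outside the naming rule. The call was lost with library size alone, with upper-quartile factors, without the filter on low counts, with the nuclear-retained RNA score and in 16 of 26 fits that left out 1 mouse, where the adjusted p ran from 0.0170 to 0.0857.

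The genes whose levels followed each member most closely from mouse to mouse were taken by Pearson's r of the deviations from the group means of log2 CPM over 26 mice. These are descriptions, since all values share library and depth. The genes were picked for their r, which makes it high by selection, and r within a single group could be far lower. For Pdk4 they were Apold1 (r = 0.89), Atp1b3 (0.88) and Zfp326 (0.88). For Pdk1 they were Fer (0.82), Kif7 (0.82) and Pard6g (0.77). For Pdk2 they were Tmem220 (0.87), Foxo1 (0.85) and Mfn2 (0.84), although Foxo1 rose with cold and Pdk2 fell. For Pdk3, the member with the fewest counts, they were Fstl1 (0.69), Gm45407 (0.66) and Gm48714 (0.66). In KO30 alone these had r = 0.26, 0.22 and -0.28, against 0.50 to 0.90 in the other groups. Without the 2 farthest mice they had 0.54, 0.47 and 0.54. For Pdp2 they were Rbp7 (0.84), Rxrg (0.84) and Phospho1 (0.83). For Pdp1 they were Eif5a2 (0.77), Plekha1 (0.71) and Gin1 (0.70), and for Pdpr they were Gpbp1l1 (0.86), Slc12a7 (0.80) and Golim4 (0.77). The genes named for Pdpr had r = 0.15, 0.13 and -0.001 in KO30 alone, against 0.79 to 0.95 in the other groups. Among the members themselves the strongest pair was Pdp1 with Pdp2 (r = -0.58), which was not alike in all groups, with r = 0.18 in WT30, -0.30 in WT5, -0.76 in KO30 and -0.86 in KO5. It was followed by Pdk2 with Pdpr (0.52), Pdk2 with Pdp2 (0.51), Pdk4 with Pdpr (0.47) and Pdk2 with Pdk4 (0.46).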

How the data were processed

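RNA-sequencing counts per gene from the BAT of 26 mice were used, and the labels gave the groups. Per the authors' notes, alignment was done to mm10 by STAR 2.5.2b and counting by featureCounts 1.5.2, and the deposited values are raw counts. All columns were used. Gene symbols, exon lengths and positions came from GENCODE M21, which gave 50462 of the 50686 listed genes a symbol. Genes were tested with the quasi-likelihood test of edgeR 4.0.16 (R 4.3.3, legacy mode, the default of the authors' edgeR 3.22.0), with filterByExpr by group, TMM factors, 1 term for each of the 4 groups and Benjamini-Hochberg adjustment over all 17286 tested genes (threshold 0.05). Log2 CPM had a prior count of 2. Exact permutation tests were two-sided. RPKM used the union of exons. The pairs of group labels WT30, KO30, WT5 and KO5 gave the contrasts. Of the steps, only edgeR's main fit and the DESeq2 fit were run on simulated counts, with known changes in KO5 alone.

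The members and the gene lists were chosen with earlier results of these data known. From each list beyond the complex and the carrier, up to 2 genes with the largest rise and 2 with the largest fall in control mice were named, among called genes with groups that did not overlap and a mean of at least 1 CPM. A gene that this rule names is not reported here. For each member, the 3 genes with the highest r were named. The alternatives were other scalings, filters and covariates, the longest annotated transcript as length, DESeq2 1.42.0, edgeR's revised method, a robust prior, fits restricted to the pair of groups and leaving out each mouse in turn. No promoter entry matched Pdp1.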

Additional observations from a re-analysis of the deposited data

Results flagged for a closer look

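Among 28 sets of values (7 genes in 4 groups), 2 held a mouse set far from the others, where chance gives about 1 in 20. Pdp1 in WT5 replicate 19 was 11.1 CPM, and on the log2 CPM scale its distance to the next mouse was 0.745 of the range of the group. Pdp2 in KO5 replicate 27 was 179 CPM, with a distance of 0.654 of the range on the same scale, and without that mouse the rise of Pdp2 in knockout-labelled mice was 1.81 on the log2 scale instead of 1.72.

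The cold response of Pdk1 differed between the genotypes by 0.90 on the log2 scale (SE 0.21), with a Benjamini-Hochberg adjusted p of 0.0330 in the interaction test of edgeR's quasi-likelihood model. The difference was positive in all 26 fits that left out 1 mouse, while the call was lost in 10 of them (adjusted p up to 0.0808 in edgeR's quasi-likelihood test), with library size alone, with no filter on low counts and with the nuclear-retained RNA score as covariate.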

How the results depend on the processing

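The calls of Pdk1, Pdk2, Pdk4 and Pdp2 with cold in control mice, and of Pdk1, Pdk4 and Pdp2 in knockout-labelled mice, kept their direction and their side of the threshold in every setting tried, fits without 1 mouse included. Pdk2 in knockout-labelled mice lost its call with the nuclear-retained RNA score. Of 959 comparisons of a member with its value in another setting, 890 kept direction and call, 47 changed sign, 14 lost the call and 8 gained it. For the named list genes, with Afdn and Ucp1, these numbers were 1847, 20, 33 and 11 of 1911. The causes were not tested. The number of members called between genotypes after cold was 1 with DESeq2 and 0 to 1 without 1 mouse, and for the genotype difference in cold response it was 0 with library size alone, with no filter and with the nuclear-retained RNA score as covariate, and 0 to 1 without 1 mouse. With the longest annotated transcript as length, the Pdk4 share was 66.1% in WT30 (lowest mouse 37.9%), 67.0% in KO30, 94.1% in WT5 and 94.5% in KO5.

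The values that changed sign belonged to differences that were not called as reported, and of these Bnip3 and Pdha1 were called lower with library size alone. With library size alone, they were Pdk3 (-0.22) and Pdp1 (-0.24), and of the lists Bnip3 (-0.28) and Pdha1 (-0.26), for cold in knockout-labelled mice. They were Mpc1 (-0.052) for cold in control mice, Pdp1 (0.034), Pdp2 (0.034) and Afdn (0.15) between genotypes at thermoneutrality, and Pdk2 between genotypes after cold (-0.057) and for the genotype difference in cold response (-0.045). With upper-quartile factors, they were Pdk3 (-0.046), Pdp1 (-0.081), Bnip3 (-0.086) and Pdha1 (-0.085) for cold in knockout-labelled mice, Mpc1 (-0.019) for cold in control mice, Afdn (0.021) at thermoneutrality and Pdk2 (-0.00675) after cold. With the nuclear-retained RNA score, they were Pdp1 (-0.071) and Pdpr (0.014) for cold in knockout-labelled mice, Pdp1 (0.014) and Pdpr (-0.040) at thermoneutrality, Pdp1 (-0.027) and Pdpr (0.031) between genotypes after cold, and Pdp1 (-0.041), Pdp2 (0.042) and Pdpr (0.071) for the genotype difference in cold response. Without the 4 mice with extreme TMM factors, a setting chosen after seeing the data, they were Pdpr (-0.020) at thermoneutrality, Pdk2 after cold (-0.18) and for the difference (-0.020), and Bnip3 (-0.16) for cold in knockout-labelled mice. Pdpr after cold was 0.00289 with DESeq2's size factors, 5.75e-05 with no filter and 0.00206 with DESeq2's test, and its genotype difference in cold response was 0.00168 and 0.000147 with DESeq2's size factors and test. Afdn at thermoneutrality was 0.00393 with no filter, 0.00196 with at least 10 counts in every mouse and 0.00523 with only the 2 groups compared.

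Without 1 mouse, signs changed within these ranges. For Pdpr they were -0.0623 to 0.00784 for cold in control mice, -0.00536 to 0.0281 and -0.0344 to 0.0249 between genotypes at thermoneutrality and after cold, and -0.0391 to 0.0224 for the difference. For Pdk2 after cold the range was -0.0672 to 0.0986, for Pdp2 in the difference -0.15 to 0.0152, for Afdn at thermoneutrality -0.0481 to 0.0564 and for Bnip3 with cold in knockout-labelled mice -0.0278 to 0.16. Pdp1 with cold in control mice was also called with upper-quartile factors (-0.27), with at least 10 counts in every mouse (-0.21) and with only the 2 groups compared (-0.21). No paired analysis was possible because the replicate numbers in the labels are unique to each mouse. Pdk3 had the fewest counts, 21 to 70 per library, while Pdk4 had the largest SE, 0.28 to 0.42.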
